A study of Homo sapiens with 18 samples.

Results

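Monomethylation of lysine 4 on histone H3 (H3K4me1) was profiled by ChIP-seq in ZR751 cells with and without MLL3 knockdown (KD). ZR751 (also written ZR75-1) is a widely used human cell line grown from an ER+ breast cancer. The KD line, ZR751shMLL3, carried 1 stably integrated lentiviral short hairpin RNA against MLL3 (gene symbol KMT2C), and ZR751shLucif cells carried a hairpin against luciferase in its place. Both were sorted on GFP, grown in insulin-supplemented medium and used at early passages, with no drug or hormone treatment described. The H3K4me1 libraries were all 4 of that mark, 2 from ZR751shLucif and 2 from ZR751shMLL3, among 18 samples in the series. Their peak lists held 1199967 of the 3365315 peaks in the 12 ChIP-seq lists. The replicates were described as biological, from 1 experimental repetition, so the p-values measure the spread between these libraries only, and an effect of lower MLL3 cannot be told apart from any other effect of the 1 hairpin used.

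H3K4me1 is laid down largely by MLL3 and the related methyltransferase MLL4, and it marks enhancers, both those in use and those held ready. At active promoters the mark is usually pushed to the flanks, because the nucleosomes next to the transcription start carry trimethylated H3K4 instead. In luminal breast cells, enhancers are bound by FOXA1 and GATA3, which open chromatin for ERα.

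Each list gave a position, a summit and the signal that the peak caller SPP assigned to every peak after comparison with an input library. The lists held 299979 and 299988 peaks in ZR751shLucif and 300000 in each ZR751shMLL3 library, because they were limited by rank, so their length measures nothing. Signal has its own scale in each list: the peak at rank 20000 had a signal of 26.1 and 11.4 in ZR751shLucif replicates 1 and 2 and of 10.6 in both ZR751shMLL3 libraries. Equal numbers of top-ranked peaks were therefore compared, and a lower or higher amount of H3K4me1 over the whole genome cannot be seen in such ranks. Width was no measurement either, since 99.99 to 100% of the peaks in a list had 1 width set by the caller, namely 964 and 900 bp in ZR751shLucif and 576 and 840 bp in ZR751shMLL3 (difference of the medians -224 bp, exact permutation test, two-sided p = 0.3333). The lists do not give the number of reads behind a peak. The study's read totals per library were higher for replicate 1 than for replicate 2 in both cell lines. The authors' false discovery rate (FDR) was 0.01 or less for 141158 and 192201 peaks in ZR751shLucif and for 28599 and 109586 peaks in ZR751shMLL3, so the top 50000 of ZR751shMLL3 replicate 1 run past that FDR. No test over 2 libraries against 2 can give a two-sided exact p below 0.3333.

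The cells were checked by RNA-seq libraries separate from the ChIP-seq libraries, in FPKM, a level scaled by the authors to transcript length and library size. KMT2C RNA stood at 2.34 and 6.77 FPKM in the ZR751shLucif libraries, against 1.07 and 2.69 FPKM after KD. The cell lines thus overlapped for the targeted gene, because ZR751shLucif replicate 1 lay below ZR751shMLL3 replicate 2. The luminal markers GATA3, FOXA1 and XBP1 were at 76.8 FPKM or more in every library. Of markers of other lineages, 10 of 15 basal and mesenchymal genes, 13 of 15 blood lineage genes and 12 of 15 neuronal genes stayed under 1 FPKM in every library, among them the basal keratin KRT5 and the leukocyte antigen PTPRC at 0.0394 FPKM or less. Others were measured above that, such as the mesenchymal factor TWIST1 (6.75 to 10.8 FPKM), the actin ACTA2 (1.65 to 3.71 FPKM) and the leukocyte plastin LCP1 (2.83 to 7.97 FPKM). The blood list summed to 9.54 and 8.98 FPKM in ZR751shLucif and 5.83 and 5.49 FPKM in ZR751shMLL3, the neuronal list to 5.97 and 6.99 against 8.92 and 11.3 FPKM, and the basal and mesenchymal list to 19.6 and 15.6 against 16.0 and 12.8 FPKM. The part of such cells in the peak lists was not tested.

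The sites on which the rank comparison turned are shown first, as 201 bases around a summit (GRCh37, the assembly of hg19; forward strand). The ERBB4 site was the only one called lower in ZR751shMLL3, SUGCT and FBXW11 had the largest shifts upward, and KICS2 and ALDH3B2 were among the strongest sites of all 4 libraries. Each is labelled by the gene with the nearest start. An intron label means a summit inside any protein-coding gene and outside exons, which need not be the named gene. For the KICS2 site that start lay 138073 bp away. Capitals mark exact matches, on either strand, to the FOXA motif with the letters TGTTTAC, the GATA-factor motif with the letters AGATAA and the AP-1 motif with the letters TGANTCA, from 8 motifs searched.
ERBB4 intron, chr2:213092907-213093107: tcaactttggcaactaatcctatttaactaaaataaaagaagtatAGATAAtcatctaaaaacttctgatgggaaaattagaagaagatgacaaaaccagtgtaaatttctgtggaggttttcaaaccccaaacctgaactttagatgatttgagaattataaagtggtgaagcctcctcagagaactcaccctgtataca
SUGCT intron, chr7:40410981-40411181: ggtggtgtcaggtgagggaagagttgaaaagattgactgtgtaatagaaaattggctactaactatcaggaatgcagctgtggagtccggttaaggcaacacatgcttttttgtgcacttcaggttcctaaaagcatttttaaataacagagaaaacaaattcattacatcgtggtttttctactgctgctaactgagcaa
FBXW11 intron, chr5:171383431-171383631: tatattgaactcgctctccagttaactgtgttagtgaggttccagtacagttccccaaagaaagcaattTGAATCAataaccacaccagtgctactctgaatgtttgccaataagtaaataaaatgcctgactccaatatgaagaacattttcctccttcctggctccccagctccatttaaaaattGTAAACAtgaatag
KICS2 intron, chr12:64477872-64478072: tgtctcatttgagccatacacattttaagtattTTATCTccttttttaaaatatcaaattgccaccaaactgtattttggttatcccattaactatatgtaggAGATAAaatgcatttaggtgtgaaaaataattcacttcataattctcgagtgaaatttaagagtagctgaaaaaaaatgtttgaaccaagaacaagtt
ALDH3B2 upstream, chr11:67458441-67458641: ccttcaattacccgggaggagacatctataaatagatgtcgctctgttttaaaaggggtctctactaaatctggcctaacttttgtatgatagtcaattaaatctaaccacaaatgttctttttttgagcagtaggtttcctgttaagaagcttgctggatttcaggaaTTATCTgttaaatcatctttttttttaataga
The GATA letters stood in the ERBB4, KICS2 and upstream ALDH3B2 windows, and the SUGCT window held none of the 8 motifs. The windows of the MRPS33 site and of the ALDH3B2 promoter site, described below and not shown, also held none. In windows of this length around the top 5000 summits, 19.4% held the GATA letters in ZR751shLucif and 19.3% in ZR751shMLL3 (means of 2 libraries), against 15.5% at positions 2 kb away. The corresponding shares were 6.22, 5.70 and 3.19% for FOXA and 7.59, 7.86 and 6.53% for AP-1.

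The first comparison asked where in the genome the top 20000 peaks of each library lay. In ZR751shMLL3 the peaks lay less often at promoters and in the intergenic sequence near genes than in ZR751shLucif, with no overlap between the cell lines. A summit within 1 kb of the start of a protein-coding transcript was counted as promoter. The promoter share was 3.48 and 3.27% in ZR751shLucif and 2.51 and 2.31% in ZR751shMLL3, which is 3.37% ± 0.148 (SD, n = 2) and 2.41% ± 0.141 (SD, n = 2) beside 1.90% of the genome. The difference was -0.96 percentage points (exact permutation test, two-sided p = 0.3333, the smallest possible here). Intergenic sequence within 50 kb of a start held 14.3 and 14.2% of the peaks in ZR751shLucif and 12.4% in both ZR751shMLL3 libraries, a difference of -1.88 percentage points with the same exact p of 0.3333.

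Introns took the largest share in every library, 49.3 and 48.9% in ZR751shLucif and 51.9 and 49.2% in ZR751shMLL3, against 42.0% of the genome. The difference of 1.42 percentage points lay within the spread of the ZR751shMLL3 libraries (exact permutation test, p = 0.667), and it was 0.065 without ZR751shMLL3 replicate 1. In the top 5000 peaks the intron shares did not overlap (48.6 and 47.5% against 51.8 and 49.9%, exact p = 0.3333). Nor did they in the top 50000, with peaks ranked within arms or with promoters widened to 2.5 kb. Exons held 2.35 and 2.33% against 2.74 and 2.46%, without overlap (exact p = 0.3333). The difference of 0.263 percentage points was 0.125 without ZR751shMLL3 replicate 1, and with all peaks at the authors' FDR of 0.01 the exon shares overlapped (2.35 and 2.42% against 2.64 and 2.33%). Distal intergenic sequence, beyond 50 kb from any start, held 30.5 and 31.3% against 30.5 and 33.7%, so the cell lines overlapped (difference 1.16, exact p = 0.667), and the direction turned to -0.41 without ZR751shMLL3 replicate 2. The median distance from a summit to the nearest start was 51472 and 51862 bp in ZR751shLucif and 53865 and 60175 bp in ZR751shMLL3, where both libraries were farther (difference 5353 bp, exact p = 0.3333). Without 1 library the difference ran from 2198 bp (no ZR751shMLL3 replicate 2) to 8508 bp (no ZR751shMLL3 replicate 1). The cell lines overlapped in the top 5000 peaks (47470 and 51102 against 50314 and 56397 bp) and with peaks ranked within arms (exact p = 0.667 in both). Over the 8 values of this kind compared between the cell lines, the lowest Benjamini-Hochberg adjusted p was 0.444.

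The difference near promoters lay on the near flanks of transcription starts. All 4 libraries were depleted within 250 bp of a start among their top 50000 peaks, at 0.724- and 0.781-fold of the genome in ZR751shLucif and 0.674- and 0.610-fold in ZR751shMLL3. At 750 to 1000 bp upstream, the density was 3.68- and 3.19-fold in ZR751shLucif and 2.10- and 2.30-fold in ZR751shMLL3. The downstream maximum, at 1250 to 1500 bp, reached 4.59- and 4.09-fold in ZR751shLucif and 3.15- and 3.62-fold in ZR751shMLL3. At both of these maxima the KD libraries were lower, and in every library the upstream maximum lay between 500 and 1250 bp from the start. Farther downstream the order was the other way: at 3250 to 3500 bp the density was 1.42- and 1.49-fold in ZR751shLucif and 1.75- and 1.69-fold in ZR751shMLL3, and at 3750 to 4000 bp 1.29- and 1.34-fold against 1.59- and 1.45-fold. Among the top 5000 peaks the downstream maximum overlapped between the cell lines, at 4.20- and 2.48-fold against 3.63- and 3.73-fold. From 5 to 20 kb the folds were 0.975, 0.980, 0.999 and 0.952 in the same order, where the cell lines overlapped. These bins were picked after the profile was seen and were not tested.

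**Figure D1:**
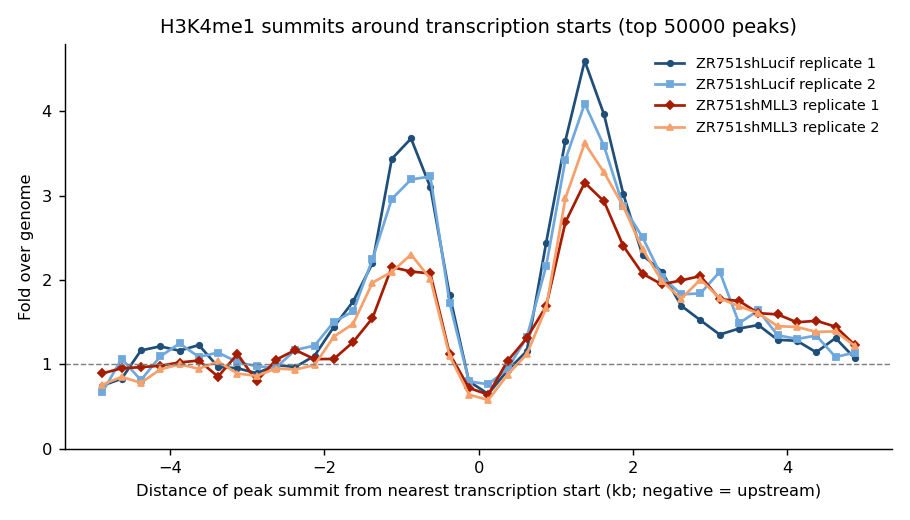
Density of H3K4me1 summits (top 50000 peaks per library) by distance from the nearest start of a protein-coding transcript, in bins of 250 bp, as fold over the genome; 1 line per library, the dashed line at 1. All libraries dip at the start and peak on both sides, and the 2 ZR751shLucif lines stand above the 2 ZR751shMLL3 lines at both maxima (4.59 and 4.09 against 3.15 and 3.62 downstream).

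The ZR751shMLL3 libraries also held fewer clusters of peaks. Peaks were joined over the gap that is customary for joining enhancers into super-enhancers, and a joined stretch of at least 5 of the top 20000 peaks was counted as a clustered domain. There were 601 and 588 such domains in ZR751shLucif and 371 and 460 in ZR751shMLL3, that is 594.5 ± 9.19 (SD, n = 2) and 415.5 ± 62.9 (SD, n = 2). All domain counts of ZR751shMLL3 were below those of ZR751shLucif (difference -179, exact permutation test, two-sided p = 0.3333). With peaks joined only within 5 kb, there were 320 and 327 domains against 162 and 221. The difference was -134.5 without ZR751shMLL3 replicate 1, the library with the fewest peaks at the authors' FDR of 0.01, and -162 when peaks were ranked within each chromosome arm, an alternative chosen after seeing the data.

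The top peaks were spread very unevenly over chromosome arms in both cell lines. The long arm of chromosome 1 held 20.9 and 18.2% of the top 20000 peaks in ZR751shLucif and 14.9 and 16.2% in ZR751shMLL3, against 3.70% of the genome. The excess over the genome averaged 4.74-fold for 1q, 3.67-fold for 12p and 3.06-fold for 7p. At the other end, 17p, 19p, 21q, Xq and 20p held 0.0659-, 0.0450-, 0.171-, 0.189- and 0.196-fold of their share. Among the top 1000 peaks, 1q held 55.3 and 48.4% in ZR751shLucif and 38.5 and 34.8% in ZR751shMLL3. Copy number was not measured in these files, and its part in the unevenness was not tested.

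The excess on 1q was smaller in ZR751shMLL3, with a mean of 15.5% of the peaks against 19.5% in ZR751shLucif. Of the 41 arms, 20 (48.8%) were higher and 9 (22%) lower in both ZR751shMLL3 libraries than in both ZR751shLucif libraries. The arms 17p, 19q, 20p, 21q, Xp and Xq, which held few peaks, were among those higher, and 1q, 7q and 19p among those lower. For example, 20p held 0.06 and 0.055% in ZR751shLucif and 0.315 and 0.295% in ZR751shMLL3. The shares of 12p (5.01 and 4.15% against 4.14 and 4.65%) and 7p (6.89 and 5.34% against 6.40 and 6.40%) overlapped between the cell lines. Every arm had an exact p of at least 0.3333, and the lowest adjusted p over the 41 arms was 0.471. Arm shares sum to a fixed total, so a lower share of 1q raises the others.

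**Figure D2:**
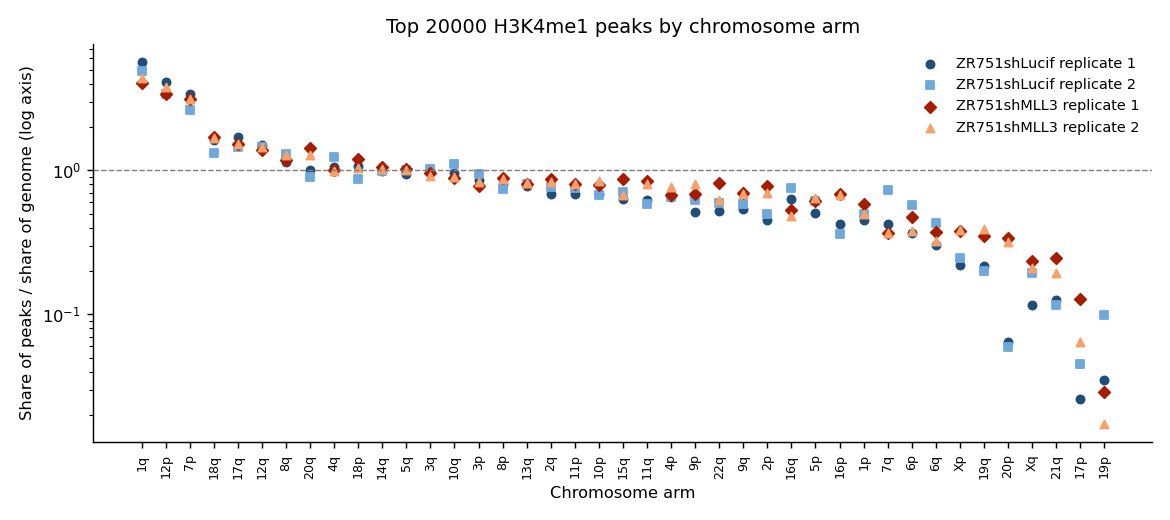
Share of the top 20000 H3K4me1 peaks on each chromosome arm divided by the arm's share of the genome, on a log axis; 1 point per library, arms in order of the mean over the libraries, the dashed line at 1. The arms 1q, 12p and 7p stand at 3.06-fold or more on average, and 17p and 19p at 0.0659- and 0.0450-fold.

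The replicates of ZR751shMLL3 repeated each other less than those of ZR751shLucif. Of the top 20000 peaks, 41.0% overlapped by at least 1 bp between the ZR751shLucif replicates and 26.2% between the ZR751shMLL3 replicates (means of both directions). Between the cell lines, the 4 pairs shared 25.4 to 33.1%, with a mean of 29.3%. The ZR751shMLL3 replicates therefore shared fewer peaks with each other than each of them did with ZR751shLucif replicate 1, with which they shared 29.4 and 33.1%. Among the top 1000 peaks, the shares were 31.7% within ZR751shLucif, 12.2% within ZR751shMLL3 and 13.9 to 20.9% between the cell lines. Pairs share libraries, so no test was made. ZR751shMLL3 replicate 1 had the fewest peaks at the authors' FDR of 0.01 (28599), and it shared 29.4 and 25.4% of the top 20000 with the ZR751shLucif replicates. ZR751shMLL3 replicate 2 shared 33.1 and 29.3% with them. The part of that 1 library in the lower overlap was not tested. With equal windows of 250 bp on each side of the summits, chosen after seeing the data because the listed widths differ, the shares were 36.2% within ZR751shLucif and 23.3% within ZR751shMLL3.

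**Figure D3:**
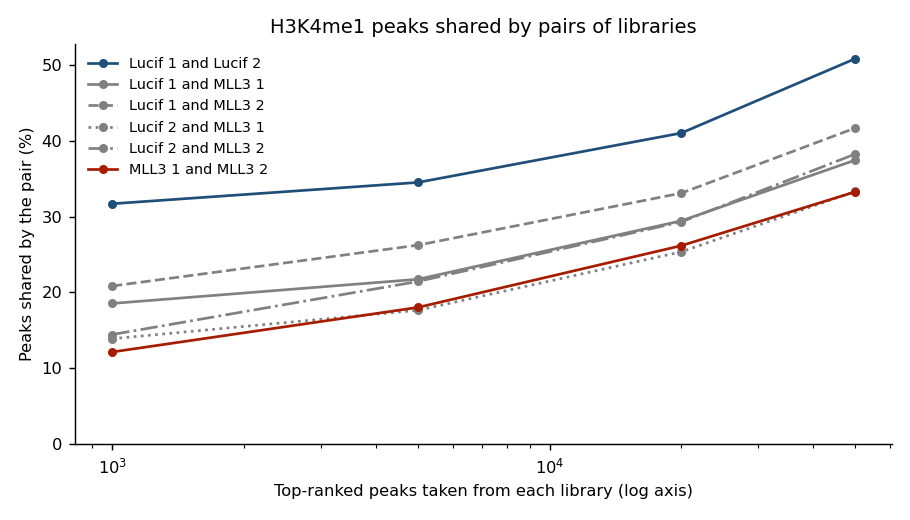
Percent of peaks shared by each pair of libraries (mean of both directions) against the number of top-ranked peaks taken from each library, on a log axis; blue, the ZR751shLucif pair; red, the ZR751shMLL3 pair; grey, pairs between the cell lines. At 20000 peaks the ZR751shLucif pair shared 41.0%, the ZR751shMLL3 pair 26.2% and the pairs between the cell lines 25.4 to 33.1%.

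The next comparison asked which sites changed rank. The top 50000 peaks of the 4 libraries merged into 91643 sites, of which 40798 overlapped a listed peak in every library, and the rank of each of these sites within its library was turned into a normal score (0 at the median site, positive for stronger ones). Only 1 site was called lower in ZR751shMLL3 (0.00245%) and 0 sites higher (0%), by limma at an adjusted p of 0.05. In simulated data without any changed site, the same test also called 1 of 40798 sites, so a single call is no more than that run gave. At an unadjusted p under 0.05, 1381 sites were lower and 1447 higher. The cell lines did not overlap at 7709 sites that were lower (18.9%) and 7401 that were higher (18.1%) in ZR751shMLL3. If the labels made no difference, 2 libraries would separate from 2 at a rate of 0.3333, both directions together. These are therefore not counts of changed sites. Ranks have a fixed middle, so the balance of these counts says nothing of a change common to all sites. Scores correlated weakly across sites: Spearman's rho was 0.287 between the ZR751shLucif replicates, 0.117 between the ZR751shMLL3 replicates and 0.0913 to 0.161 between cell lines (40798 sites, described without a test). With 2 libraries per cell line, a shift that was not called is not shown to be absent.

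The site called lower lay in an intron of ERBB4, a receptor tyrosine kinase of the epidermal growth factor receptor family, at chr2:213092524-213093668, 310247 bp from the nearest start. It ranked 4698 and 178 in ZR751shLucif and 298827.5 and 207117 in ZR751shMLL3. It was thus among the strong sites of both control libraries and in the lower part of both KD lists, near the end in replicate 1 (score difference -4.32, SE 0.873, limma adjusted p = 0.0311). It entered the comparison only through the control libraries, where it was in the top 50000, so it was bound to differ to some degree, and the p cannot be read as that of a site chosen without its ranks. This call rested on both control libraries and on ZR751shMLL3 replicate 1: without ZR751shLucif replicate 1, ZR751shLucif replicate 2 or ZR751shMLL3 replicate 1 the limma adjusted p was 0.425, 0.994 and 0.265. It was also lost with sites from the top 20000 peaks (0.0913) and with missing sites ranked last (0.722); over all alternatives it ran from 0.00898 to 0.994. The SE of 0.873 was the same for all sites, because limma estimated 1 common spread for them. Within 50 kb of its start, ERBB4 had 7 and 5 of the top 50000 peaks in ZR751shLucif and 2 and 6 in ZR751shMLL3, where the cell lines overlapped.

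The sites next in size were not called, with a limma adjusted p of 0.287 to 0.313, and are described by their ranks. With log2 of ranks in place of scores, NIBAN1 (limma adjusted p = 3.8e-05), SUGCT (0.00965) and SKAP2 (0.0386) were called and the others were not. Over the alternatives with all 4 libraries their adjusted p reached 0.722 with missing sites ranked last for SUGCT and SKAP2 and 0.515 for NIBAN1. Like the ERBB4 site, all of the sites next in size entered the comparison only through the cell line where they ranked high. They were thus bound to differ to some degree. Their p-values cannot be read as those of sites chosen without their ranks. A site 32367 bp from the start of MRPS33, which encodes a protein of the mitochondrial ribosome, ranked 16885 and 1681 in ZR751shLucif and 297385 and 247756 in ZR751shMLL3. A promoter site of SLC50A1, a sugar transporter, 544 bp from the start at chr1:155106794-155107968, ranked 808 and 16774 against 287084 and 253826. An intronic site of NIBAN1, a stress-response gene, ranked 21 and 192 in ZR751shLucif, among the strongest of those lists, and 60136 and 124748 in ZR751shMLL3. The site near KIAA0232 ranked 7999 and 57094 against 293979 and 299605.5. In all of these the KD libraries lay well below both control libraries.

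In the other direction, an intronic site of SUGCT, a coenzyme A transferase of glutarate metabolism, ranked 274537 and 139657 in ZR751shLucif and 634 and 971 in ZR751shMLL3. An intronic site of FBXW11, a substrate receptor of an SCF ubiquitin ligase, ranked 299094 and 118047 against 2071 and 3808. At these 2 sites the KD libraries lay close together and far above both control libraries. Both sites entered the comparison only through the KD libraries, so some difference in this direction was bound to appear. A site 147680 bp from KCNJ2, a potassium channel gene, ranked 69638 and 298046.5 against 4372 and 794, and an exonic site at SKAP2, an adaptor protein, 159621 and 283889 against 22936 and 121. The ZNF609 site ranked 299188 and 298656.5 against 66821 and 14682, and so lay outside the top 50000 of ZR751shMLL3 replicate 1.

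Other sites were at the top of all 4 lists. An intronic site at chr12:64477348-64478944 ranked 6 and 2 in ZR751shLucif and 153 and 4 in ZR751shMLL3. Its nearest start, 138073 bp away, was that of KICS2, part of the KICSTOR complex of nutrient sensing. The intron need not be one of KICS2. Upstream of ALDH3B2, an aldehyde dehydrogenase gene, a site 9846 bp from the start ranked 40 and 66 against 20 and 120. The promoter site of ALDH3B2, 728 bp from the start, ranked 2 and 166 against 2 and 146. These 3 sites had the best mean ranks of all shared sites, and the ranks of the cell lines overlapped at each.

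**Figure D4:**
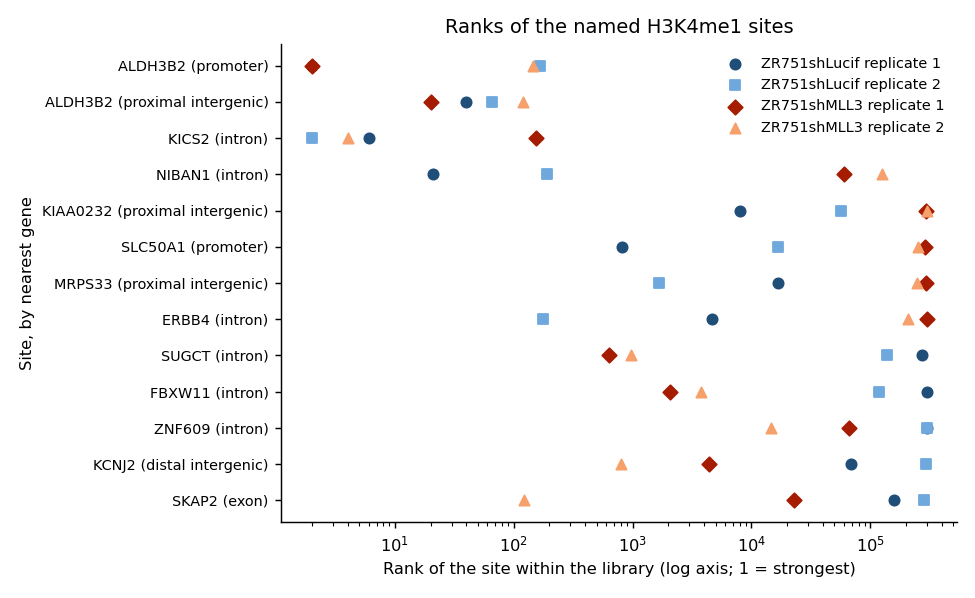
Ranks of the 13 named sites within each library, on a log axis with 1 the strongest; 1 point per library, sites labelled by the nearest gene and the annotation. The 2 cell lines separate at the 10 shifted sites, for example 21 and 192 against 60136 and 124748 at NIBAN1, and overlap at KICS2 and the 2 ALDH3B2 sites.

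By annotation, promoter sites ranked lower in ZR751shMLL3. The median score difference was -0.17 over 1053 promoter sites and -0.09 over 5181 proximal intergenic sites, beside -0.01 over all 40798 sites. Exonic sites ranked higher, with a median difference of 0.07 over 973 sites; the median exonic site scored -0.07 and -0.01 in ZR751shLucif and 0.08 and 0.04 in ZR751shMLL3. Intronic sites differed by 0.02, also without overlap, and distal intergenic sites by -0.01, with overlap. The median promoter site scored 0.12 and 0.03 in ZR751shLucif and -0.04 and -0.08 in ZR751shMLL3, without overlap (exact permutation test, p = 0.3333; lowest adjusted p over 5 classes 0.417). These are the same libraries as in the promoter share above, so the 2 results are not independent.

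The letters of luminal transcription factor motifs were more frequent at summits than beside them in both cell lines. Within 250 bp of the top 5000 summits, the FOXA letters stood at 14.5% in both ZR751shLucif libraries and at 14.6 and 13.4% in ZR751shMLL3, against 8.05% at positions 2 kb away. The GATA letters stood at 40.3 and 40.7% against 40.8 and 42.8%, with 34.1% beside the summits. The AP-1 letters stood at 19.5 and 18.8% against 18.6 and 19.0%, with 16.0% beside. In these 3 motifs every library was above every flank, and the cell lines overlapped for FOXA and AP-1, while GATA was higher in both KD libraries by a mean of 1.33 percentage points. Within 100 bp of the summits this turned to -0.10 for GATA, with overlap, and FOXA (-0.52) and AP-1 (0.27) then did not overlap. The letters of the grainyhead-like motif (GRHL, AACCNGTT), bound by regulators of epithelial genes, stood at 5.16 and 4.96% in ZR751shLucif and 4.40 and 4.38% in ZR751shMLL3. Their own flanks held 3.70 and 3.24% in ZR751shLucif and 4.36 and 4.20% in ZR751shMLL3, so in the KD libraries the summits were little above their flanks. Those of TFAP2 (GCCNNNGGC) stood at 7.20 and 7.64% against 6.36 and 6.46%, with 6.85% beside. At summits, GRHL and TFAP2 were lower in both KD libraries (exact permutation test, p = 0.3333). The SP1/KLF letters (GGGCGGG) were scarcer at summits than beside them, at 1.08 and 0.92% in ZR751shLucif and 0.92% in both ZR751shMLL3 libraries, with 2.80% beside. The CTCF core stood at 3.22 and 2.58% against 2.96 and 3.32%, with 3.90% beside, and the full palindromic estrogen response element at 0.04% in both ZR751shLucif libraries and 0.08 and 0.04% in ZR751shMLL3, with 0.04% beside. Over the 8 motifs the lowest adjusted p was 0.889. Summits were poorer in G and C than their flanks in all libraries, with a median of 36.9 to 37.7% against 39.7 to 40.3%, and the part of base composition in these shares was not tested.

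A small share of the peaks lay near strong ERα sites. Of the top 20000 H3K4me1 peaks of a library, 0.79 to 4.16% had 1 of the top 5000 ERα summits within 1 kb, against 0.345 to 1.41% at positions moved by 50 kb; the share followed which ERα list was used (3.42 to 4.16% for ZR751shLucif replicate 2, 0.79 to 0.94% for ZR751shMLL3 replicate 2) more than which H3K4me1 list.

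The last comparison counted the top 50000 peaks within 50 kb of the start of each of 19801 protein-coding genes. The genes with the most H3K4me1 in their surroundings, chosen after their values were seen, lay mostly on the peak-rich arms. MGP, which encodes a secreted inhibitor of calcification, led with 53 and 45 peaks in ZR751shLucif and 34 and 38 in ZR751shMLL3, and the cell lines did not overlap. Its RNA level was 858 and 173 FPKM in the control libraries, against 12.3 and 28.3 FPKM after KD. The neighbouring ERP27 on 12p had 50 and 42 against 33 and 27 peaks, partly the same ones. AGR3, a secreted protein of luminal cells on 7p, had 33 and 47 against 29 and 30. RERG, a growth inhibitor linked to the estrogen receptor, had 38 and 32 against 37 and 39, so there the cell lines overlapped. RNA was also lower in both KD libraries at ERP27 (50.7 and 40.8 against 9.18 and 11.9 FPKM). The same held at RERG (34.6 and 50.4 against 32.4 and 18.8 FPKM), where peaks overlapped. AGR3 RNA overlapped (73.9 and 164 against 92.3 and 52.2 FPKM). So did that of CD55 (66.7 and 34.5 against 31.5 and 40.2 FPKM), which had 42 and 32 against 31 and 29 peaks.

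Among the 9492 genes with a mean of at least 1 peak, limma called 0 genes (0%) in either direction, the lowest adjusted p being 0.174. With no filter on low peak numbers, limma called 464 genes higher and 285 lower, so the count of calls depended on that filter. At an unadjusted p under 0.05, 495 were higher and 586 lower in ZR751shMLL3. The cell lines did not overlap at 1105 of these genes that were higher (11.6%) and 1534 that were lower (16.2%), and over all 19801 genes at 1660 (8.38%) and 1799 (9.09%).

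The largest differences without overlap were at loci where one cell line had no or almost no top-ranked peak. CILK1, a kinase of the primary cilium, had 0 and 0 peaks in ZR751shLucif and 6 and 5 in ZR751shMLL3. BIRC2, an inhibitor of apoptosis, had 0 and 0 against 5 and 4, and CLIP4, a microtubule-linked protein, 0 and 0 against 3 and 6. At 9q, RBM18, MRRF and LHX6 shared 1 window, with 1 and 0 peaks against 7 and 7 near RBM18. Their log2(number + 1) differences ran from 2.40 to 2.70. Within 100 kb of the start the difference was 1.37 for CILK1 and 0.79 for BIRC2, and with peaks ranked within arms it was 1.42 for RBM18 and MRRF, 1.32 for LHX6 and 1.70 for CLIP4. The RNA of BIRC2 was at 17.3 and 12.3 FPKM in ZR751shLucif and 13.1 and 13.7 FPKM in ZR751shMLL3, and that of CLIP4 at 3.03 and 2.03 against 4.82 and 6.53 FPKM. The RNA of RBM18 (18.1 and 14.5 against 11.2 and 12.3 FPKM) and MRRF (16.1 and 13.8 against 12.4 and 13.4 FPKM) was lower in both KD libraries, opposite to their peaks, and that of CILK1, BIRC2 and LHX6 overlapped.

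In the lower direction, GGH, a hydrolase of folate metabolism, had 7 and 6 peaks in ZR751shLucif and 0 and 0 in ZR751shMLL3. AADAT, an aminotransferase of tryptophan and lysine breakdown, had 6 and 6 against 0 and 0, and HERC6, a ubiquitin ligase, 5 and 5 against 0 and 0. RAB3IP had 10 and 8 against 0 and 2, the laminin gene LAMB1 7 and 7 against 1 and 0, and the hemidesmosome collagen COL17A1 4 and 5 against 0 and 0. The RNA of AADAT was at 10.0 and 3.29 FPKM in ZR751shLucif and 1.69 and 1.55 FPKM in ZR751shMLL3, while that of GGH (22.4 and 39.8 against 27.2 and 35.0) overlapped. RAB3IP RNA was at 9.34 and 11.8 against 6.36 and 6.61 FPKM, and the RNA of HERC6, LAMB1 and COL17A1 overlapped. Within 100 kb the log2(number + 1) difference was -1.44 for AADAT, -0.69 for HERC6, -1.40 for RAB3IP, -0.95 for LAMB1 and -1.51 for COL17A1, against -2.81 to -2.45 within 50 kb. None of the 12 genes was called, with a limma adjusted p of 0.174 to 0.410. With no filter on low peak numbers 6 of them were called, namely CILK1, BIRC2, GGH, AADAT, HERC6 and COL17A1 (limma adjusted p = 0.000556 to 0.0258). Genes with few or no peaks then entered limma's estimate of the spread, and the part of that in these calls was not tested. The 12 genes were also picked by the size of this difference in the same libraries, so these p-values lend them no support. A count of 0 peaks in the top 50000 does not show that the mark was absent: the best peak near GGH ranked 58656 and 66303 in the ZR751shMLL3 lists.

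Gene lists were then read against the 8.38% of all genes that were higher and the 9.09% that were lower without overlap. A gene without any top-ranked peak cannot separate, so these shares are low for lists rich in peaks. Among the 9492 genes with a mean of at least 1 peak they were 11.6% and 16.2%. With peaks ranked within arms, 1636 of all 19801 genes were higher and 1918 lower. Of the 15 luminal epithelial markers, 4 had fewer peaks in ZR751shMLL3 without overlap and 11 overlapped. The list summed to 91 and 89 peaks in ZR751shLucif and 67 and 67 in ZR751shMLL3, most of the difference lying at MUC1, ESRP2 and CDH1. The median gene of the list had 5 and 3 peaks against 3 and 3, beside 0 and 1 against 1 and 1 over all genes. MUC1, a membrane mucin, had 16 and 17 peaks against 8 and 8. ESRP2, a splicing regulator of epithelial cells, had 15 and 15 against 8 and 6. CDH1, the epithelial cadherin, had 14 and 18 against 12 and 11, and the tight junction gene CLDN3 had 1 and 2 against 0 and 0. CDH1 and ESRP2 lie near each other on 16q, an arm with a lower share of peaks in ZR751shMLL3, and MUC1 lies on 1q. When peaks were ranked within arms, 3 of the 15 were lower and 1 was higher, and MUC1 overlapped. Among those named for the upper end, KRT8 had 3 and 0 against 2 and 3 and CLDN4 1 and 0 against 1 and 1. The RNA of CDH1 was at 247 and 267 FPKM against 268 and 283 FPKM.

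Luminal transcription factors had no common direction, with 93 and 79 peaks against 93 and 109 over 15 genes, 2 higher and 1 lower without overlap. TFAP2C, a regulator of the luminal lineage, had 1 and 1 peaks against 5 and 6, and MYB, an ER-responsive factor, 4 and 3 against 6 and 7. SPDEF, an ETS factor of secretory cells, had 8 and 10 against 5 and 7. FOXA1 (17 and 10 against 13 and 21), XBP1 (11 and 10 against 9 and 20), ELF3 (18 and 15 against 13 and 18) and EHF (24 and 15 against 23 and 22) overlapped between the cell lines. TBX3 had 4 and 2 against 2 and 0. ESR1 itself had 1 and 0 against 1 and 2.

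The 25 classical ER targets summed to 110 and 102 peaks in ZR751shLucif and 112 and 120 in ZR751shMLL3, with 3 higher and 4 lower. SLC39A6, a zinc transporter, had 6 and 8 against 12 and 10 peaks, XBP1 is given above, PDZK1, a scaffold protein, had 6 and 12 against 5 and 2, and AREG, a ligand of the epidermal growth factor receptor, 9 and 11 against 7 and 6. None of these passed the limma test. GREB1 and TFF1 had 5 and 6 against 3 and 10 and 0 and 2 against 1 and 0. The AP-1 genes summed to 37 and 36 against 24 and 21 over 12 genes, with 2 lower and 0 higher and a median of 2.5 and 3.5 against 1 and 1. These were FOSL1, with 4 and 5 against 1 and 1 peaks, and FOS, with 3 and 5 against 2 and 2. FOSL2 had 2 and 4 against 0 and 2, and MAFF 0 and 0 against 1 and 0. The RNA of FOS was at 1.76 and 5.90 against 9.94 and 3.29 FPKM and overlapped.

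In the H3K4 methylation machinery, 3 of 17 genes were higher and 2 lower, with sums of 39 and 37 against 45 and 35 peaks. KDM5B, a demethylase of trimethylated H3K4, had 17 and 17 peaks against 13 and 10, and SETD7, an H3K4 monomethyltransferase, 6 and 5 against 4 and 1. KDM6A, the demethylase of the MLL3 and MLL4 complexes, had 1 and 2 against 4 and 3, and NCOA6, a subunit of the same complexes, 4 and 2 against 5 and 6. KMT2C had 1 and 1 peaks in ZR751shLucif and 3 and 0 in ZR751shMLL3. When peaks were ranked within arms, 0 of the 17 were higher and 1 was lower.

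Of the 11 growth factor receptors, 1 was higher and 1 lower. ERBB2 had 3 and 1 against 8 and 4 peaks, and MET 6 and 5 against 3 and 1. EGFR had 2 and 0 against 1 and 5. Of the 20 PI3K, AKT and mTOR genes, 4 were higher and 3 lower. IRS2, an adaptor of the insulin receptor, had 1 and 2 against 3 and 6 peaks and an RNA level of 0.424 and 0.471 against 1.66 and 1.54 FPKM. FOXO3 had 2 and 0 against 3 and 4, RPS6KB1, a kinase downstream of mTOR, 10 and 12 against 4 and 8, and PIK3CB 5 and 3 against 1 and 0.

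Lists of other lineages served as a background. Basal and mesenchymal genes had 31 and 24 against 33 and 26 peaks over 15 genes, with 2 higher (ZEB1, 0 and 0 against 2 and 2, and FN1, 3 and 3 against 5 and 6) and 0 lower. SPARC had 3 and 7 against 3 and 3 and KRT14 7 and 1 against 2 and 4. Blood lineage genes had 44 and 53 against 31 and 58, with 0 higher and 0 lower, and neuronal genes 19 and 19 against 26 and 19, also with 0 in each direction. Of the blood lineage genes, CD34 (9 and 11 against 8 and 15), CD2 (6 and 5 against 9 and 4), PTPRC (12 and 12 against 7 and 13) and CD4 (12 and 10 against 5 and 10) carried most of the sum, although their RNA was at 0.96 FPKM or less, and CD34, CD2, PTPRC and CD4 lie on 1q, 1p, 1q and 12p. Of the neuronal genes, DCX (1 and 0 against 3 and 1), GRIA2 (0 and 3 against 0 and 0) and NEFH (1 and 4 against 2 and 1) were among the largest differences. Housekeeping genes had 14 and 25 against 21 and 27, with 2 of 15 higher and 0 lower; the largest differences were at TBP (2 and 3 against 4 and 5), POLR2A (0 and 0 against 0 and 3), HSP90AB1 (0 and 2 against 0 and 0) and TUBB (1 and 3 against 1 and 2).

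In no list was a gene called by limma. With peaks ranked within arms, 1636 of all 19801 genes were higher and 1918 lower without overlap. The list genes without overlap then numbered 4 higher and 1 lower for luminal transcription factors, 5 and 3 for ER targets and 1 and 2 for AP-1 genes. For PI3K, AKT and mTOR genes they numbered 6 and 2, and for growth factor receptors 1 and 1. Among the background lists they numbered 1 and 2 for housekeeping genes, 2 and 1 for basal and mesenchymal genes, 0 and 1 for blood lineage genes and 1 and 1 for neuronal genes.

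**Figure D5:**
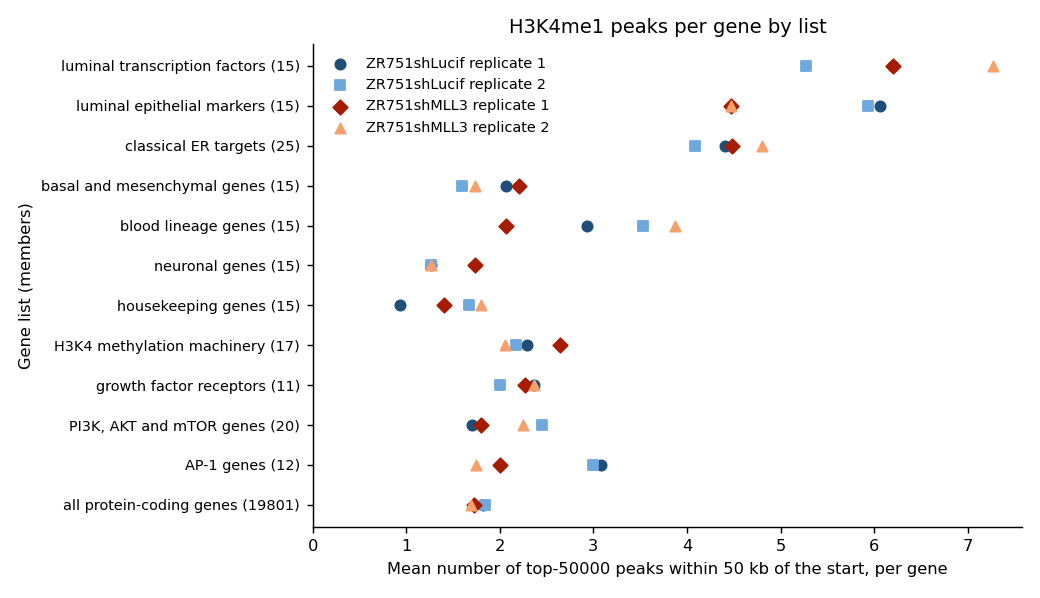
Mean number of top-50000 H3K4me1 peaks within 50 kb of the start, per gene of each list, with the number of members in brackets; 1 point per library, all protein-coding genes in the bottom row. The 2 cell lines separate for the luminal epithelial markers (6.07 and 5.93 against 4.47 and 4.47) and the AP-1 genes (3.08 and 3.00 against 2 and 1.75), and by less for the classical ER targets (4.40 and 4.08 against 4.48 and 4.80), beside 1.82 and 1.84 against 1.72 and 1.69 over all genes.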

How the data were processed

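The authors trimmed the reads, aligned them to hg19 with BWA 0.7.5a-r405, filtered them with SAMtools, marked duplicates with Picard 1.126, and called peaks in each library against 1 input library per cell line with SPP. By the library names, the ZR751shLucif input belongs to another library series. The study's read totals were higher for replicate 1 than for replicate 2 in both cell lines. The fixation is stated differently in the methods and in the labels. The deposited lists give the SPP signal and the −log10 of the FDR per peak, and the deposited FPKM table, made with TopHat2, Cufflinks and Cuffnorm 2.2.1, was matched to symbols for 22895 of 23501 entries.

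Peaks were ranked by signal within each list. Promoters, genes and starts came from GENCODE protein-coding transcripts on GRCh37, and 0 peaks ran past a chromosome end. Site scores and log2(number + 1) of peaks per gene were tested with limma 3.58.1 in R 4.3.3 (Benjamini-Hochberg, 0.05), after checks on simulated data, without the replicate number; other values were compared with exact permutation tests in scipy 1.17.1. Genes named were, per list, the 2 largest differences each way, and over all genes the 6 largest each way without overlap; of sites, the 5 largest shifts each way and the 3 best shared; others given are named as chosen after seeing their values, or as further list members. One gene that this rule names is not reported here. The lists, motifs and comparisons were chosen with earlier results of these data known. A list of genes known only from a figure was left out after its values were seen. Input libraries and read counts were not used here.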

Additional observations from a re-analysis of the deposited data

How the results depend on the processing

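The differences in promoter share, intron share, distance to the start, number of clustered domains and overlap between replicates kept their direction under every alternative run. Without 1 library in turn, the promoter share difference ran from -1.06 to -0.855 percentage points, the intron share from 0.065 to 2.765, the distal intergenic share from -0.41 to 2.725, the distance from 2198 to 8508 bp and the domains from -223.5 to -134.5. The listed width, a caller setting, differed by -356 to -92 bp. With log2 of ranks 16 sites were called higher and 34 lower, with sites missing from a list ranked last 1 and 4 (the ERBB4 site not among them), with sites from the top 20000 peaks 0 lower, and without 1 library 0 to 1 lower. With no filter on low peak numbers 464 genes were called higher and 285 lower. The promoter rank shift relative to all sites ran from -0.40 to -0.15, while the distal intergenic one, -0.0004, turned to 0.00795 with sites from the top 20000 peaks, 0.0598 with missing sites ranked last, 0.0047 with summit windows and 0.00356 within chromosome arms, and ran from -0.0306 to 0.0197 without 1 library. Of the motifs, GATA within 100 bp differed by -0.10, AP-1 by 0.27 and SP1/KLF by 0.01 percentage points, and the CTCF core over the top 20000 summits by -0.04. The cause of these changes was not tested. The score differences of the shared sites, none of them called, changed sign: the upstream ALDH3B2 site was at 0.0688 with log2 of ranks, 0.00916 with missing sites ranked last and 0.261 within arms. Without 1 library it ran from -0.26 to 0.237, the ALDH3B2 promoter site from -0.613 to 0.64 and KICS2 from -1.10 to 0.0372. A cell line left with 1 library was assumed to vary like the other.

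No label ties a replicate number to a shared culture or day, and deviations of same-numbered libraries correlated at -0.00331 over 40798 sites. With the replicate number as a block, 0 sites were called higher and 1 lower, and 0 genes in either direction. The exact tests used no block. Peak lists carry ranks and scores, so depth per library and the amount of the mark on a common scale were not analysed here.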
